A study of Mus musculus with 2 samples.

Results

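The genes described here encode the respiratory chain and the ATP synthase, from both the nuclear and the mitochondrial genome. They were chosen by symbol: the Ndufa, Ndufb, Ndufc, Ndufs and Ndufv families of complex I, Sdha to Sdhd of complex II, Uqcr of complex III, Cox4 to Cox8 of complex IV, Atp5 of complex V, and the mt- protein genes. Symbols starting with Ndufaf and symbols with -ps were left out. The rule reads symbols and no measured value, but the members were chosen with earlier results of these data known. It gave 102 of 32286 features, 89 nuclear and 13 mitochondrial. Of the nuclear genes 38 belonged to complex I, 4 to complex II, 8 to complex III, 18 to complex IV and 17 to complex V. The prefixes also caught Sdhaf1 to Sdhaf4, which are assembly factors of complex II and were described apart, so that nuclear sums below cover 85 genes. The mitochondrial genes were 7 of complex I, 1 of complex III, 3 of complex IV and 2 of complex V.

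The respiratory chain passes electrons from NADH (complex I) and succinate (complex II) through ubiquinone, complex III and cytochrome c to oxygen at complex IV, and the proton gradient that complexes I, III and IV build drives the ATP synthase, complex V. Complexes I, III, IV and V combine subunits made in the cytosol from nuclear genes with core subunits made inside the organelle from mitochondrial DNA, whereas complex II is wholly nuclear. Immune cells differ in how far they use it: mature neutrophils rely mostly on glycolysis, and activated macrophages can shift away from oxidative phosphorylation.

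The cells were leukocytes from the left ventricles of mice that had received a bone marrow transplant (BMT) and then TAC (transverse aortic constriction), in which the aorta is tied narrower so that the left ventricle pumps against a higher pressure. The marrow was of control genotype or of the genotype labelled LOY, which by the title of the study stands for loss of the Y chromosome, and TAC was common to both groups. Viable CD45+ RFP+ cells, taken as marrow-derived by the labels, were sorted from 3 mice per group, pooled after the sort and made into 1 droplet library per group. Neither the strain, sex and age of the mice, nor how the loss was produced or the time after surgery, was given in the sources used here. With 1 library per group there was no replicate check and no test was possible. Intervals in parentheses are 95% and cover counting error only. Levels are counts of unique molecular identifiers (UMIs, each a counted transcript) per 1000000 UMIs of the class (CPM), a share of the RNA counted and not an amount per cell. Paired values give the control library and then the LOY library.

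The control library held 7276 barcodes and 42640861 UMIs (median 5109.5 per barcode), and the LOY library 5475 barcodes and 18710715 UMIs (median 3026). The summed Y-linked genes were at 125 and 14.0 CPM, so the libraries differed in the direction of their labels. The leukocyte marker Ptprc (CD45) was at 551 and 531 CPM, and no UMI of either library fell on the RFP sequence. The libraries shared 31 barcodes, 19 of them among the 6601 and 5180 cells kept. Macrophage-like cells were the largest class, with 4408 and 3305 cells, but different clusters held most of it in each library: clusters led by H2-Eb1, Cd209f and Egr1 had 1282, 1224 and 964 control cells and 270, 72 and 49 LOY cells, whereas those led by Tmem119, Ltc4s and Ly6a had 28, 156 and 14 control cells and 954, 740 and 660 LOY cells. All classes were named from markers, and the members were left out of the genes used for clustering.

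Nuclear and mitochondrial transcripts of the chain did not rank the cell classes in the same way. In the control library the 85 nuclear genes together were highest in monocyte-like cells, at 18978 CPM (18782 to 19176), and in NK cell-like cells, at 18762 CPM (18466 to 19062), and these intervals overlapped. Conventional dendritic cell-like cells followed with 17213 CPM, then cluster 0 with 16608 CPM, T cell-like cells with 15614 CPM and macrophage-like cells with 14318 CPM (14274 to 14362). Cluster 0 was led by Cd209a and stayed unnamed, because most markers detected in it were of macrophages while its leading genes held more of dendritic cells. B cell-like cells had 12394 CPM, and neutrophil-like cells were lowest with 8406 CPM (8194 to 8623). The 13 mitochondrial genes were instead highest in B cell-like cells, at 56276 CPM, and T cell-like cells, at 44802 CPM. NK cell-like cells had 36293 CPM, macrophage-like cells 33657 CPM, cluster 0 32923 CPM and conventional dendritic cell-like cells 32468 CPM. Monocyte-like cells, at the top for the nuclear genes, had 25255 CPM, and neutrophil-like cells 10473 CPM. B cell-like cells thus had 4.54 mitochondrial UMIs for each nuclear member UMI (4.47 to 4.61), against 1.33 (1.31 to 1.35) in monocyte-like and 1.25 (1.20 to 1.29) in neutrophil-like cells. Neutrophil-like cells were spread widely in the mitochondrial genes: the median cell gave them 0.369% of its UMIs, with the 10th percentile at 0.0574% and the 90th at 1.96%. Barcodes with over 10% mitochondrial UMIs, 3.81% of control and 1.06% of LOY barcodes, had been removed, which bounds these sums. In the LOY library B cell-like, monocyte-like and neutrophil-like cells had 2.61, 0.702 and 0.857 mitochondrial UMIs per nuclear member UMI. The nuclear order was not the same there. NK cell-like cells, conventional dendritic cell-like cells and cluster 0 stood above monocyte-like cells, and T cell-like cells were close to them.

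**Figure D1:**
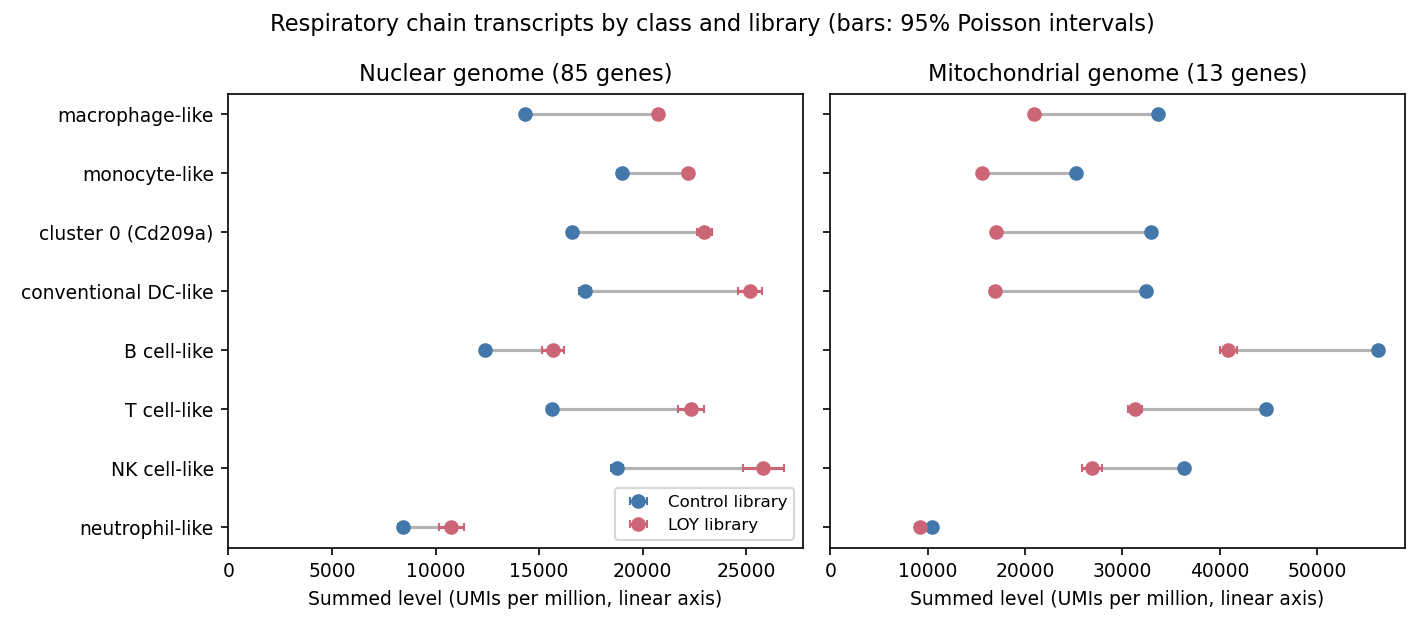
Summed level (CPM, linear axes from 0) of the 85 nuclear genes (left) and the 13 mitochondrial genes (right) in each class, with blue points for the control library, red points for the LOY library and bars for 95% Poisson intervals. Nuclear points of the LOY library lie to the right of the control in all 8 classes, and mitochondrial points to the left, with the smallest distance in neutrophil-like cells.

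In macrophage-like cells of the LOY library, pooled over their clusters, the nuclear genes were higher and the mitochondrial genes lower than in the control library. The nuclear sum was 14318 and 20761 CPM, a ratio of 1.45 (1.44 to 1.46). The mitochondrial sum was 33657 and 20968 CPM, a ratio of 0.623 (0.620 to 0.626). Mitochondrial UMIs per nuclear member UMI went from 2.35 (2.34 to 2.36) to 1.01. The divergence ran through every complex with subunits from both genomes. Complex I was at a ratio of 1.46 (1.44 to 1.47) for its nuclear and 0.708 (0.702 to 0.715) for its mitochondrial genes. Complex III was at 1.62 (1.59 to 1.64) and 0.538 (0.530 to 0.547), complex IV at 1.55 (1.53 to 1.56) and 0.631 (0.627 to 0.635), and complex V at 1.36 (1.34 to 1.37) and 0.563 (0.558 to 0.569). Complex II, which has no mitochondrial gene, did not follow the other nuclear genes: its 4 subunits had 384 and 354 CPM, a ratio of 0.923 (0.891 to 0.956). Its assembly factors Sdhaf1 to Sdhaf4 were at 113 and 86.2 CPM, a ratio of 0.764 (0.711 to 0.819).

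A member counted as measured when at least 1 of the libraries had 10 CPM or more, and as apart when the ratio of levels, with 10 CPM added to both, passed 1.5-fold. In macrophage-like cells 77 of the 85 nuclear genes were measured. Of these 30 were higher in the LOY library, 39.0%, against 6.83% of all 7857 genes measured. Only 2, Sdhd and Ndufb3, were lower, 2.60%, against 7.89% of all genes. The median log2 ratio was 0.43 over the nuclear members and -0.01 over all genes. All 13 mitochondrial genes were measured; 7 were lower, none was higher, and their median log2 ratio was -0.83. By complex, 14 of 37 measured nuclear genes of complex I were higher, 4 of 8 of complex III, 6 of 11 of complex IV, 6 of 17 of complex V and 0 of 4 of complex II.

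Promoters are shown for the members at both ends of the ratios, since the nuclear genes of the chain are known to share regulators such as NRF1 and the ETS-family factor GABP, many of whose sites lie in promoters rich in CpG (a C followed by a G). The RefSeq table (GRCm38.p6) matched 68 of the 85 nuclear genes by symbol. Below are the 100 bases before the start site, read 5′ to 3′ on the strand of the gene, for Uqcr10 (highest ratio, chr11:4704345-4704444, minus strand), Ndufa11 (next highest, chr17:56717662-56717761, plus strand), Ndufb3 (next lowest, chr1:58586297-58586396, plus strand) and Sdhd (lowest, chr9:50603850-50603949, minus strand). Capitals mark each CpG.
Uqcr10: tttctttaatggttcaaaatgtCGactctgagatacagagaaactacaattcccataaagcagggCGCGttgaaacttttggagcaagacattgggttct
Ndufa11: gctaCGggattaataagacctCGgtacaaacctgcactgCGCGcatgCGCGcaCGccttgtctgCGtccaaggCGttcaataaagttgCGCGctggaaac
Ndufb3: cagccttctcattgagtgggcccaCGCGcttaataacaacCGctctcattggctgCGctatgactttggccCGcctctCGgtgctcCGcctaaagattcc
Sdhd: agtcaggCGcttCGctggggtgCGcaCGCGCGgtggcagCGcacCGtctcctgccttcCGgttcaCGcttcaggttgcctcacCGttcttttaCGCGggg

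The stretch of Uqcr10 held 3 CpG and was 40.0% G or C, the one of Ndufa11 held 11, the one of Ndufb3 held 7 and the one of Sdhd held 13 and was 67.0% G or C. In windows from 250 bases before to 50 after the start, the median number of CpG was 19 over the 64 matched members measured in macrophage-like cells and 22 over the 6282 other genes measured there. Spearman's rho between this number and the log2 ratio was -0.18 across the 64 members and -0.005 across the other genes. These genes share the libraries and their base composition, and the promoter letters do not show which factor was bound.

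Among the nuclear genes of complex I, small accessory subunits were furthest apart in macrophage-like cells. Ndufa11, an accessory subunit of the membrane arm, had 94.9 and 252 CPM, a ratio of 2.65 (2.52 to 2.79). Ndufv3, a small subunit near the NADH-binding end, had 82.7 and 217 CPM, a ratio of 2.62 (2.48 to 2.77). Ndufs6 had 95.7 and 221 CPM, and Ndufa12 had 104 and 239 CPM, ratios of 2.31 and 2.29. The 2 complex I genes with the highest levels were Ndufa13, also known as the cell death regulator GRIM-19, with 260.5 and 576 CPM (2.21), and Ndufb9 with 256 and 365 CPM (1.43). Against these, Ndufb3 had 116 and 65.8 CPM, a ratio of 0.566 (0.523 to 0.611), and Ndufc2 had 215 and 149 CPM (0.694). The catalytic core subunits lay between the extremes: Ndufs1, which carries iron-sulfur clusters, had 23.5 CPM in both libraries, Ndufv2 had 108 and 114 CPM (1.06, 0.996 to 1.13) and Ndufv1, which binds NADH, had 46.8 and 81.4 CPM (1.74). Ndufa4, named for complex I but now regarded as a subunit of complex IV, had 244 and 172 CPM, a ratio of 0.704.

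Complex II showed the lowest nuclear ratio of all. Sdhd, a membrane anchor subunit, had 78.1 CPM (74.9 to 81.4) and 27.1 CPM (24.2 to 30.2), a ratio of 0.347 (0.308 to 0.390). Sdhc, the other membrane anchor, had 68.4 and 49.6 CPM (0.724). The catalytic flavoprotein Sdha had 87.7 and 83.8 CPM, a ratio of 0.955 (0.886 to 1.03) whose interval holds 1, and the iron-sulfur subunit Sdhb had 149.6 and 194 CPM (1.30). Both membrane anchors were thus lower, while the catalytic pair was not. Sdhaf4, an assembly factor that acts on Sdha, had 50.8 and 28.3 CPM (0.558).

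Complex III ranged from the highest nuclear ratio to a ratio below 1. Uqcr10, a small subunit, had 129.6 CPM (125 to 134) and 375 CPM (364 to 386), a ratio of 2.89 (2.77 to 3.02). The small subunits Uqcr11, with 120.2 and 272 CPM, and Uqcrq, with 171 and 382 CPM, were at 2.27 and 2.24. Uqcrh, the hinge protein and the gene of the complex with the highest mean level, had 375 and 453 CPM (1.21). The core proteins went apart: Uqcrc1 had 81.7 and 153 CPM (1.87), and Uqcrc2 had 85.9 and 62.5 CPM (0.727). Uqcrfs1, the Rieske iron-sulfur protein, had 78.4 and 82.0 CPM (1.05, 0.970 to 1.13).

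In complex IV the widely expressed isoforms carried the difference. Cox4i1 was at 790.1 and 1404 CPM, a ratio of 1.78 (1.74 to 1.81). Cox8a had 572 and 1065 CPM (1.86), and Cox7a2 had 199 and 406 CPM (2.04). Among the measured nuclear genes placed in the complex by their Cox symbols, only Cox7c was lower, with 280.4 and 235 CPM (0.837). Ndufa4, counted with complex I by its symbol, was lower too.

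In complex V the ratios ranged from 0.746 to 2.46. Atp5j2, a small subunit of the membrane part, had 212 and 522 CPM, a ratio of 2.46 (2.37 to 2.55). The membrane part subunits Atp5h, with 449 and 502 CPM (1.12), and Atp5l, with 324 and 562 CPM (1.74), had the highest mean levels. The catalytic beta subunit Atp5b had 353 and 364 CPM, a ratio of 1.03 (0.995 to 1.07). The genes Atp5g1, Atp5g2 and Atp5g3 encode the same mature ring subunit, and they differed in direction: Atp5g1 had 229 and 395 CPM (1.72), Atp5g2 374 and 279 CPM (0.746) and Atp5g3 155 and 130.0 CPM (0.838). None of the nuclear members lies on the Y chromosome, and 3 lie on the X: Cox7b (1.80), Ndufb11 (1.48) and Ndufa1 (0.828).

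**Figure D2:**
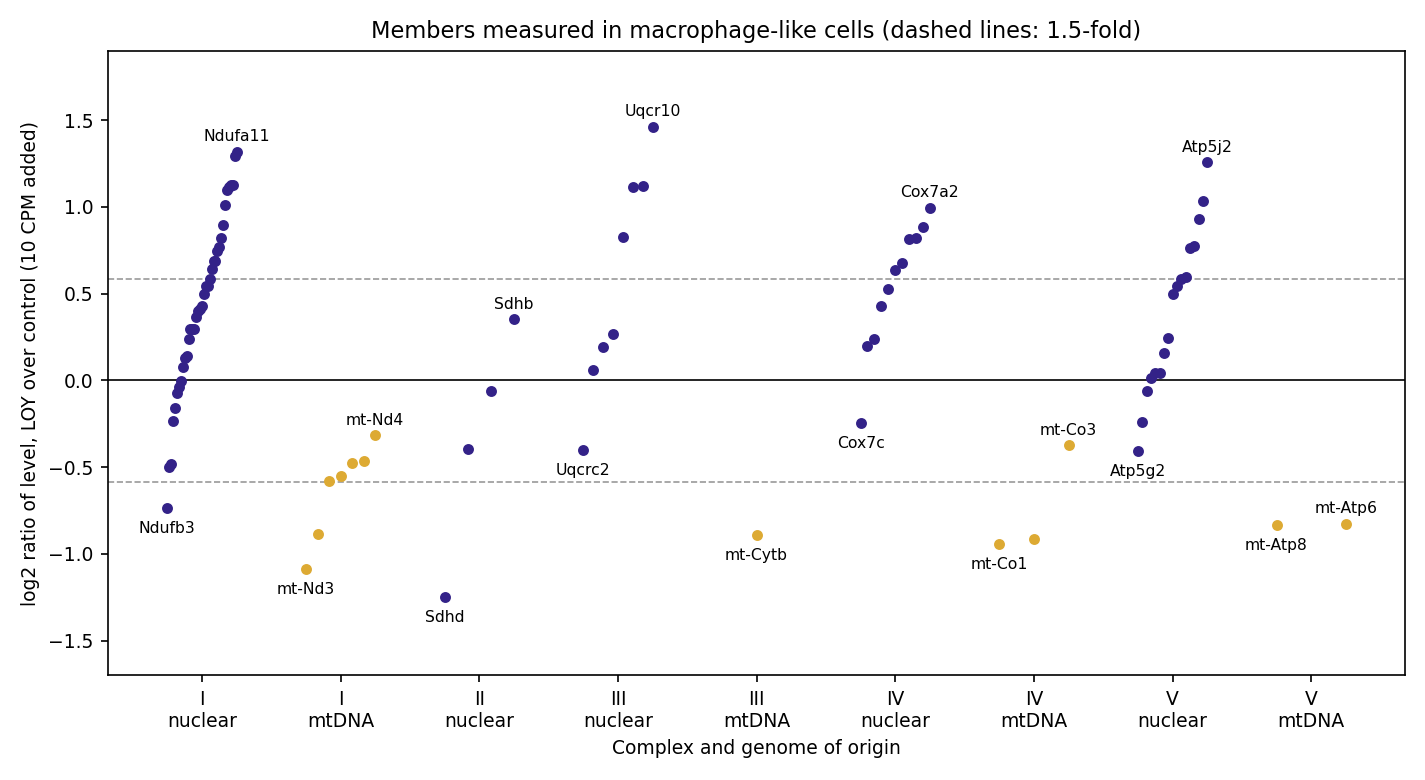
Log2 ratio (LOY over control, 10 CPM added) of each member measured in macrophage-like cells, by complex and genome of origin, with nuclear genes in blue, mitochondrial genes in yellow and dashed lines at 1.5-fold. Each group of nuclear genes crosses 0, from Sdhd at -1.25 to Uqcr10 at 1.46, whereas all 13 mitochondrial genes lie below 0.

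Every mitochondrial gene was lower in the LOY macrophage-like cells, but not to the same extent. The ratio was closest to 1 for mt-Nd4, with 1816 and 1457 CPM (0.802, 0.788 to 0.816), and for mt-Co3, with 7305 and 5639 CPM (0.772, 0.765 to 0.779). Among the other complex I genes mt-Nd1 had 1788 and 1284 CPM (0.718), mt-Nd5 327 and 235 CPM (0.716), mt-Nd2 2043 and 1365 CPM (0.668), mt-Nd6 29.7 and 17.1 CPM (0.575), mt-Nd4l 106 and 52.5 CPM (0.497) and mt-Nd3 319 and 145 CPM (0.455, 0.432 to 0.479), the lowest of the 13. Cytochrome b, mt-Cytb, was at 3083 and 1660 CPM (0.538). The other complex IV genes, mt-Co1 with 4360 and 2260 CPM and mt-Co2 with 5342 and 2834 CPM, were at 0.518 and 0.531, below mt-Co3. The ATP synthase genes mt-Atp6, with 7052 and 3976 CPM, and mt-Atp8, with 86.3 and 44.0 CPM, were at 0.564 and 0.510. The make-up of the mitochondrial UMIs therefore differed: mt-Co3 held 21.7% and 26.9% of them, mt-Co1 12.95% and 10.8% and mt-Co2 15.9% and 13.5%. The same order of shares between the libraries was seen in B cell-like cells, where mt-Co3 held 21.6% and 26.3% and mt-Co1 12.5% and 9.65%.

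These genes are read from long transcripts that are then cut, so their counts near 3' ends are not independent. On the mitochondrial genome of mm10, mt-Atp8 (chrM:7766-7969) overlaps mt-Atp6 (chrM:7927-8607), and mt-Nd4l (chrM:9877-10173) overlaps mt-Nd4 (chrM:10167-11544). Each of these pairs stays on a shared messenger RNA, so the low counts of mt-Atp8 and mt-Nd4l cannot be told apart from the splitting of reads between the partners. The gene mt-Nd6 lies on the opposite strand and overlaps mt-Nd5.

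Other gene groups in the same macrophage-like cells were set beside the chain. Of all genes measured there 6.83% were higher and 7.89% lower. None of the ribosomal and proteasome groups below had a larger share of lower genes than that. Mitochondrial ribosomal proteins were at a ratio of 1.29 (1.28 to 1.30), with 12 of 77 measured genes higher (15.6%) and 4 lower. Cytosolic ribosomal proteins were at 1.21, with 20 of 77 higher (26.0%) and 5 lower, from Rpl10 (1739 and 428 CPM) to Rpl41 (1027 and 2476 CPM). Proteasome subunits were at 1.08 (1.08 to 1.09), with 5 of 37 higher (13.5%) and 1 lower. Each of these groups had a smaller ratio and a smaller share of higher genes than the nuclear respiratory genes (1.45, 39.0%), with no test of the difference. Assembly factors of the complexes were at 1.16 (2 of 27 higher and 2 lower, 7.41% each way and near the 6.83% and 7.89% of all genes), with a median log2 ratio of 0.05. At their ends stood Uqcc2, which helps build complex III (81.4 and 164 CPM), and Coa6, which serves copper delivery to complex IV (26.8 and 13.4 CPM). Electron and metabolite carriers were at 1.24 (2 of 16 higher, 12.5%, and none lower), but with 8 genes above and 8 below 0 and a median log2 ratio of 0.004. The sum was led by the uncoupling protein gene Ucp2 (615 and 1092 CPM) and by Cycs, cytochrome c (94.3 and 169 CPM). Enzymes of the TCA cycle were at 1.03 with a median log2 ratio of -0.13, and of 13 measured only Fh1, fumarase, was apart (44.5 and 21.9 CPM).

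Genes that serve mitochondrial DNA expression were at 1.03 (0.995 to 1.07), with a median log2 ratio of -0.01. Of 13 measured 1 was higher (7.69%) and 3 were lower (23.1%), against 6.83% and 7.89% of all genes. Tufm, a mitochondrial elongation factor, was higher with 16.6 and 36.7 CPM. Lower were Tsfm, its exchange factor, with 19.4 and 7.92 CPM, Ssbp1, which binds single-stranded mitochondrial DNA, with 48.8 and 27.0 CPM, and Tfam, which packages and transcribes mitochondrial DNA, with 27.4 and 14.8 CPM. Nuclear regulators of respiratory genes were at 0.873 (0.838 to 0.909). None of the 7 measured was apart on the scale with 10 CPM added, which understates differences of low genes such as Gabpa. Their median log2 ratio was -0.26, with 6 of the 7 below 0 and the counting interval below 1 for 5. Gabpa had 20.0 and 11.3 CPM, Esrra 23.9 and 18.1 CPM and Creb1 52.3 and 53.3 CPM.

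Several properties of the libraries moved with these ratios. Early genes that respond to tissue digestion were at 19274 and 9970.5 CPM in macrophage-like cells (0.517). There 18 of 22 were lower and none higher, against 7.89% and 6.83% of all genes. Their sum was lower in each class compared (0.517 to 0.779). In neutrophil-like cells 8 of the 22 were lower and 2 higher, against 26.3% and 16.4% of all genes. The median UMIs per macrophage-like cell were 5677 and 3148. Members with GC-rich transcripts had higher ratios: Spearman's rho between transcript GC content and log2 ratio was 0.39 across 77 nuclear members and 0.27 across 7635 other genes, a description across genes that share both libraries. In the lowest, middle and highest tercile of GC content (cut at 47.5% and 53.5%) the median log2 ratio of members was 0.04, 0.41 and 0.57, and that of other genes -0.13, -0.01 and 0.13. Members were above the other genes in each tercile. Split at their own median length, the members with shorter transcripts had higher ratios as well. The 39 nuclear members with a median transcript length of up to 659 bases had a median log2 ratio of 0.64, and the 38 longer ones 0.32. The same split gave 0.69 and 0.16 in T cell-like and 0.79 and 0.22 in conventional dendritic cell-like cells. Of the 77 members 71 were in the shortest tercile of all genes, with a median of 0.43 against 0.03 for the other genes there. The 6 members in the middle tercile were not lower, with a median of 0.47 against -0.03. Mitochondrial genes had GC contents of 31.9% to 41.1%, all below the lower cut. The part of digestion, depth, GC content and transcript length in the ratios was not tested.

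The opposite movement of the 2 genomes appeared in the other classes as well, with sizes that differed. In conventional dendritic cell-like cells (60 and 57 cells) the nuclear sum was 17213 and 25170 CPM (1.46, 1.42 to 1.51) and the mitochondrial sum 32468 and 16926 CPM (0.521). In cluster 0 the ratios were 1.38 and 0.518, in T cell-like cells 1.43 and 0.699, in B cell-like cells 1.26 and 0.727, and in NK cell-like cells, with 48 LOY cells, 1.38 and 0.741. Monocyte-like cells had a smaller nuclear ratio of 1.17 (1.15 to 1.19), from 18978 and 22177 CPM, beside a mitochondrial ratio of 0.616 (0.607 to 0.625). Neutrophil-like cells had 8406 and 10762 CPM (1.28, 1.20 to 1.36) for the nuclear and 10473 and 9223 CPM (0.881, 0.826 to 0.938) for the mitochondrial genes, the mitochondrial ratio closest to 1 of all classes. That neutrophil-like ratio was 1.02 when each library was clustered on its own.

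In T cell-like cells 32 of 77 nuclear members were higher (background 18.6%) and 3 lower (18.7%). In B cell-like cells 21 of 77 were higher (9.70%) and 3 lower (21.9%), in cluster 0 27 of 78 (8.95%) and 4 (16.3%), and in conventional dendritic cell-like cells 38 of 77 (15.8%) and 2 (19.5%). In monocyte-like cells 18 of 78 were higher (7.87%) and 7 lower (15.4%). In neutrophil-like cells 15 of 77 were higher, 19.5% against a background of 16.4%, and 13 lower, 16.9% against 26.3%, so there the share of higher members was near that of all genes. No mitochondrial gene passed 1.5-fold upward in any of these 7 classes, and between 2 of 12 (neutrophil-like) and 12 of 13 (cluster 0) passed it downward. Of all genes 26.3% and 16.3% did so in these 2 classes. In neutrophil-like cells the share of lower mitochondrial genes was thus below that of all genes.

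The members with the highest and lowest nuclear ratio in macrophage-like cells were followed across the other classes. Uqcr10 had 144 and 380 CPM in cluster 0, 140 and 324 CPM in monocyte-like, 137 and 368 CPM in conventional dendritic cell-like, 123 and 330.3 CPM in T cell-like and 80.3 and 173 CPM in B cell-like cells, ratios from 2.15 to 2.68. In neutrophil-like cells it rested on 58 and 12 UMIs, with 82.0 and 99.8 CPM, a ratio of 1.22 (0.595 to 2.29) that cannot be told from 1. Sdhd was lower in each of the 7 classes. It had 87.7 and 21.1 CPM in monocyte-like cells (0.240, 0.163 to 0.345), 88.0 and 23.8 CPM in cluster 0 (0.271) and 77.9 and 21.4 CPM in conventional dendritic cell-like cells (0.275). B cell-like, T cell-like and neutrophil-like LOY cells held only 2, 3 and 2 Sdhd UMIs, and their ratios of 0.322 (0.0380 to 1.23), 0.326 (0.0646 to 1.02) and 0.273 (0.0321 to 1.05) have intervals that hold 1.

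Further members were at the ends of the ratios in other classes, several of them also at the ends in macrophage-like cells. Ndufa12 (2.29 in macrophage-like cells) had the highest ratio in monocyte-like cells, with 85.1 and 217 CPM (2.56). Atp5j2 and Ndufa13 led conventional dendritic cell-like cells, with 207 and 629 CPM (3.04) and 272 and 814 CPM (3.00), and Atp5j2 was at 2.71 in T cell-like and 2.46 in macrophage-like cells. Among the lowest in B cell-like cells were Ndufc2, with 97.8 and 54.6 CPM (0.559), also low in macrophage-like cells (0.694), and Cox6a1, with 201 and 127 CPM (0.633). In neutrophil-like cells the complex IV genes Cox8a, with 587 and 1123 CPM (1.91, 1.56 to 2.33), and Cox7b, with 69.3 and 150 CPM (2.16), were among the highest, beside Uqcrq with 93.4 and 225 CPM (2.41). Their nuclear complex IV sum was at 1.56 (1.40 to 1.72), whereas complex I was at 1.14 (1.01 to 1.28). Gene by gene their complex I showed no common direction. Of 37 measured genes 6 were higher and 9 lower, shares near the 16.4% and 26.3% of all genes. The ratio was above 1 for 18 and below 1 for 19, and the median log2 ratio was -0.02. The counting interval lay above 1 for 2 of these genes and below 1 for none.

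**Figure D3:**
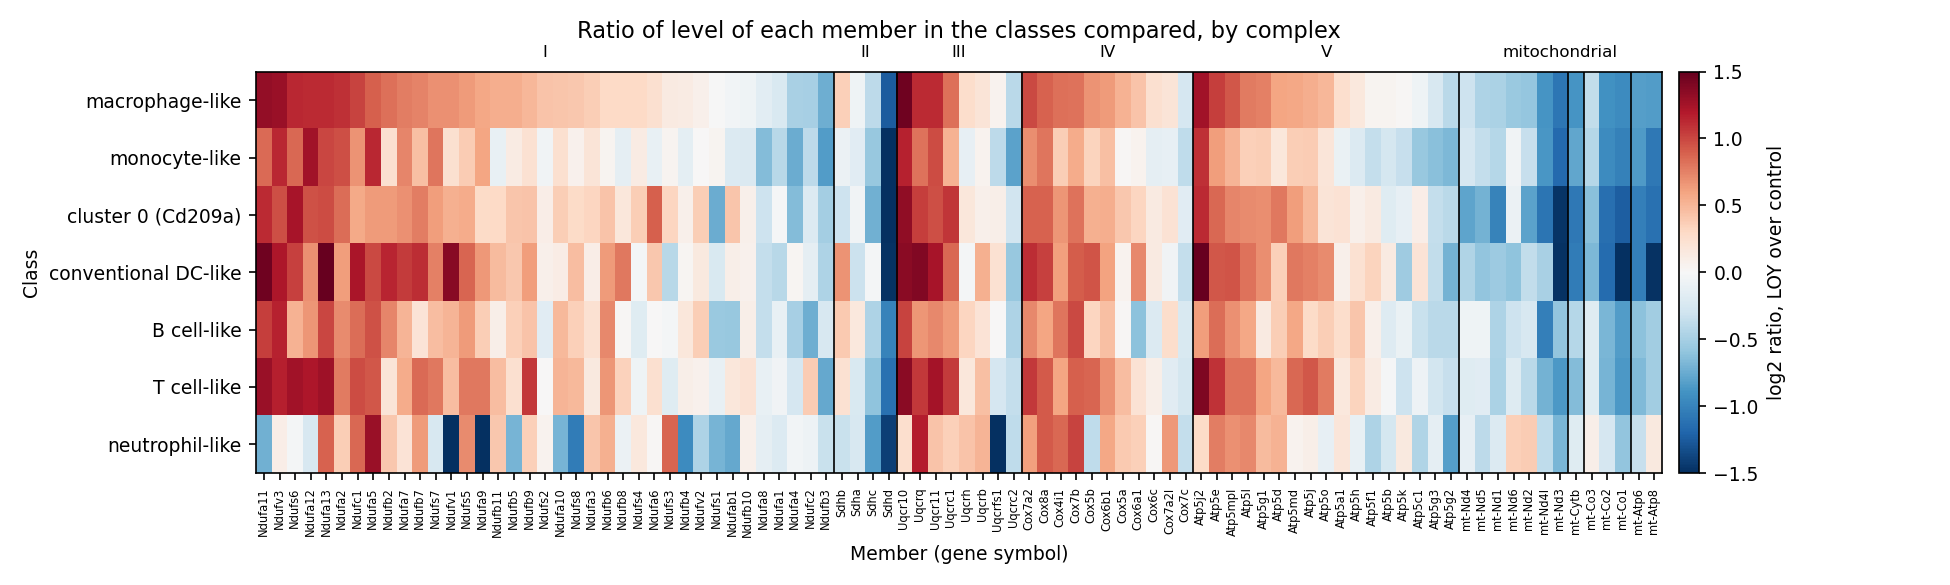
Log2 ratio (LOY over control, 10 CPM added) of each member (columns, grouped by complex with the mitochondrial genes at the right) in the 7 classes compared (rows), on a colour scale from -1.5 in blue to 1.5 in red with values beyond it drawn in the end colours. The Uqcr10 column is red and the Sdhd column blue in every row, and the mitochondrial columns are blue except for a few cells in the neutrophil-like row.

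Clusters were compared too, since the libraries filled the macrophage-like class from different ones. Over the 16 clusters with at least 30 cells in both libraries the nuclear ratio ran from 1.14 in the monocyte-like cluster led by Ly6c2 to 1.52 in the macrophage-like cluster led by Cxcl13, and the mitochondrial ratio from 0.518 in cluster 0 to 0.881 in neutrophil-like cells. Within macrophage-like clusters the nuclear and mitochondrial ratios were 1.47 and 0.772 for the Egr1 cluster, whose leading genes are early response genes and chemokines, and 1.41 and 0.766 for the H2-Eb1 cluster, rich in MHC class II genes. They were 1.32 and 0.696 for the Cd209f cluster, 1.26 and 0.639 for the Lyve1-positive cluster led by Ltc4s, 1.32 and 0.592 for the interferon-response cluster led by Cxcl9 and 1.28 and 0.675 for the cycling cluster led by Hist1h1b. Most of these nuclear ratios were smaller than the 1.45 of the pooled class. Most of the mitochondrial ratios were closer to 1 than its 0.623. The cycling cells had the highest nuclear level among macrophage-like clusters of either library with at least 30 cells, 17898 and 22995 CPM. Clusters mostly of 1 library gave a level only: the LOY cells led by Tmem119 had 20049 nuclear and 19158 mitochondrial CPM, and those led by Ly6a 21088 and 17671 CPM.

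**Figure D4:**
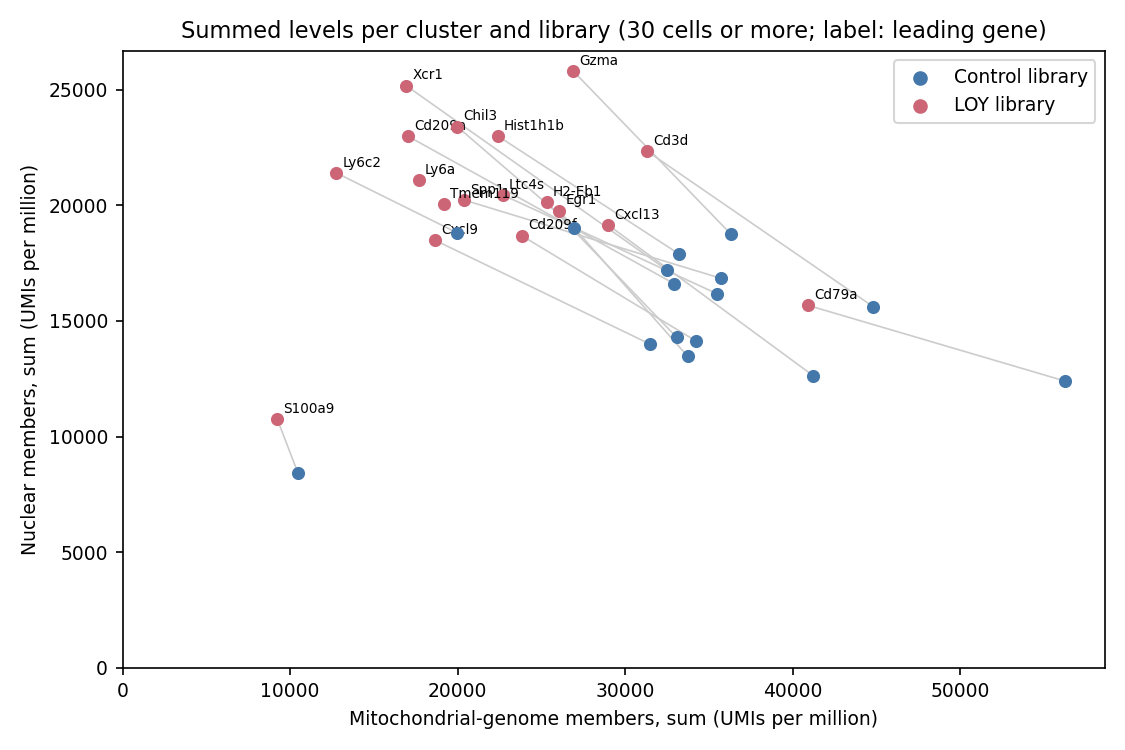
Summed level of the nuclear members against that of the mitochondrial members (CPM, linear axes from 0) for each cluster with at least 30 cells in a library, blue for the control and red for the LOY library, with a line joining the points of a cluster and its leading gene as label. Each line runs up and to the left from control to LOY, and the neutrophil-like cluster (S100a9) lies apart at the lower left.

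The members restricted to certain tissues were scarce in these leukocytes. Cox6a2, Cox7a1 and Cox8b encode the isoforms that heart and skeletal muscle use in complex IV, and together they had 12.8 and 17.6 CPM in macrophage-like cells. Cox6a2 had 215 and 98 UMIs there, 7.57 CPM (6.59 to 8.65) and 8.17 CPM (6.63 to 9.95). Cox7a1 had 3.55 CPM (2.89 to 4.32) and 8.92 CPM (7.31 to 10.8), and Cox8b 1.69 CPM (1.25 to 2.24) and 0.50 CPM (0.184 to 1.09). The list of 10 cardiomyocyte transcripts was at 117 and 80.8 CPM in the same cells, with 6 genes at 10 CPM or more in a library and none at 0, and at 10.2 CPM in control B cell-like cells. Its genes differed in direction between the libraries: Myl2 had 31.8 and 12.1 CPM and Pln 7.18 and 1.33 CPM, but Tnnt2 had 15.3 and 27.7 CPM. Per 1000 UMIs of that list the macrophage-like cells had 64.5 (56.2 to 73.7) and 101 (82.1 to 123) Cox6a2 UMIs, but 30.3 (24.7 to 36.8) and 110.4 (90.5 to 133) Cox7a1 UMIs and 14.4 (10.6 to 19.1) and 6.19 (2.27 to 13.5) Cox8b UMIs. Since the make-up of the list itself differed, these proportions say nothing of the source of the isoforms. With each cell thinned to 1000 UMIs, 0.411% of control (0.244% to 0.649%) and 1.05% of LOY macrophage-like cells (0.730% to 1.47%) had a Cox7a1 UMI, and 2.27% and 3.00% unthinned. The thinned share was 0.126% (0.00318% to 0.698%) in control B cell-like cells, at median depths of 5677 UMIs for the macrophage-like and 2044 UMIs for the B cell-like cells. Thinning left out 31 and 74 macrophage-like cells.

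Cluster 6, led by Spp1 and Gpnmb, had 40 control and 510 LOY cells and stayed unnamed because cardiomyocyte genes were among its leading genes. The cardiomyocyte list was at 2841 and 586 CPM in it. Cox6a2 was at 59.1 CPM (35.6 to 92.2) and 35.7 CPM (27.9 to 44.9) there. Its nuclear sum was 16834 and 20225 CPM (1.20), and its mitochondrial sum 35741 and 20383 CPM (0.570). Whether these transcripts come from the cells themselves or from heart muscle was not tested.

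The highest Cox6a2 level was in plasmacytoid dendritic cell-like cells. It had 10 UMIs in 3 control cells, 505 CPM (242 to 930), and 48 UMIs in 11 LOY cells, 1613 CPM (1189 to 2138), beside 0 and 1 UMI of the cardiomyocyte list. With so few UMIs in these cells, 0 allows up to 152 CPM of the list in the control cells and 1 UMI stands for 33.6 CPM in the LOY cells. It came next to Siglech, a receptor of these cells, among the leading genes of the cluster, although it was not used for clustering. These cells are too few for a comparison between the libraries.

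Ndufa4l2, a relative of Ndufa4 known to respond to hypoxia, had 16 UMIs in 13 control and 4 UMIs in 10 LOY fibroblast-like cells, 109 CPM (62.2 to 177) and 64.6 CPM (17.6 to 165), and 0.246 and 0.50 CPM in macrophage-like cells. Cox4i2, the lung-enriched and hypoxia-linked isoform of Cox4i1, had 0.739 and 1.17 CPM in macrophage-like cells. Cox6b2, known from testis, had 2.67 CPM (2.11 to 3.35) and 6.25 CPM (4.92 to 7.83) there and 8.51 and 10.8 CPM in monocyte-like cells, with overlapping intervals between the libraries in the latter (4.86 to 13.8 and 6.51 to 16.9). Cox7b2 and Cox8c, also known from testis, had 0 UMIs in macrophage-like cells of both libraries, which allows up to 0.106 and 0.25 CPM.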

How the data were processed

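Leukocytes of the heart were profiled as 2 droplet libraries, 1 per group. The submitters' processing notes name Cell Ranger 5.0.0 and mm10. The files hold UMI counts as deposited by the authors, not normalized. Neither the annotation release nor how barcodes were filtered is given in the sources used here. Libraries were made with a 10x 3' kit per the labels' protocols, which reads the 3' end of each transcript, and no scaling by length was applied. Reads that match a gene and a near-identical copy can be lost or split in such counting, which was not tested for members with pseudogenes.

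Barcodes needed 500 UMIs or more, 200 genes or more and no more than 10% of UMIs from mitochondrial genes. Scrublet scores were computed within each library, and the highest were removed at 0.8% per 1000 barcodes (391 control and 235 LOY); the automatic threshold of scrublet called 88 and 0. Both libraries were clustered together (2000 variable genes without members, 30 principal components, 15 neighbours, Leiden resolution 1, seed 0; Python 3.11.15, scanpy 1.11.5, igraph 0.11.9, scipy 1.17.1) with no batch correction. A cluster was named when at least 3 markers of a type were seen in at least 25% of its cells and its 10 leading genes held no more markers of another type. UMIs were summed per class and library. Members were counted past the fold in classes with at least 50 cells in both libraries, and sums and their ratios were given from 30 cells upward. For smaller classes UMIs and CPM of single isoforms are given beside the number of cells. Intervals are exact: Poisson for CPM, conditional for ratios, Clopper-Pearson for shares of cells. Where no UMI was seen, the limit is that of 3 counts. The ratio on the log2 scale has 10 CPM added to both libraries and so understates differences of low genes.

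The members and gene lists were chosen with earlier results of these data known. Genes are named by rule: all mitochondrial genes, in macrophage-like cells the 8 highest and 8 lowest ratios, the 3 highest and 3 lowest in other classes (at least 50 UMIs over both libraries and 50 CPM in the higher one), the 2 highest levels of each complex, the tissue-restricted isoforms and the ends of each other list. Core and isoform genes beyond it, such as Ndufs1, Ndufv1, Uqcrc1, Uqcrfs1, Cox7a2, Cox7c, Atp5b and Atp5g1, were added after their values were seen, for their known roles. Gene positions came from GENCODE M21 on GRCm38, of which mm10 is the other name, and promoters from RefSeq.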

Additional observations from a re-analysis of the deposited data

Results flagged for a closer look

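Ndufb1-ps carries the prefix of the complex I genes and was left out by the rule on symbols with -ps, yet it was among the better detected features. Over all barcodes it had 111 CPM in the control library (4729 UMIs) and 79.0 CPM in the LOY library (1478 UMIs), levels like those of measured members. Whether these reads come from this locus or from a related gene was not tested.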

How the results depend on the processing

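No paired analysis was possible because each group is 1 library. Of 148 values recomputed under alternatives, 100 moved by less than their counting interval, 47 moved further, and 1 changed direction: the mitochondrial ratio of neutrophil-like cells was 1.02 with each library clustered on its own, where its nuclear ratio was 1.40. Nuclear ratios stayed above 1 in every class and alternative run (1.12 to 1.49), and the other mitochondrial ratios stayed below 1. The cause of the moves was not tested.

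In macrophage-like cells the nuclear ratio was 1.43 with a mitochondrial cut of 5%, with members among the clustering genes and with CPM taken without mitochondrial genes. It was 1.44 at resolution 0.5 and with the Spp1-led cluster added, and 1.48 without mitochondrial and ribosomal-protein genes in the CPM. The mitochondrial ratio was 0.70 with the 5% cut, 0.608 with no cut, 0.632 from 1000 UMIs, 0.607 with doublets kept, 0.634 without mitochondrial and ribosomal-protein genes in the CPM and 0.615 without mitochondrial genes. It was 0.609 at resolution 0.5, 0.643 with members among the clustering genes, 0.664 over clusters with at least 20% of cells from each library and 0.620 with the Spp1-led cluster. The count of lower nuclear members was 1 with 50 CPM added.

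In monocyte-like cells the nuclear ratio was 1.12 with the 5% cut, 1.13 with no cut and from 1000 UMIs, 1.21 at resolution 0.5, and 1.23 with doublets kept and over the shared clusters. The mitochondrial ratio was 0.694 with the 5% cut, 0.715 from 1000 UMIs, 0.745 with doublets kept, 0.728 at resolution 0.5, 0.780 with separate clustering, 0.746 with members among the clustering genes and 0.741 over the shared clusters. In B cell-like cells the nuclear ratio was 1.22 from 1000 UMIs, which left 62 LOY cells, and 1.36 without mitochondrial and ribosomal-protein genes in the CPM. Their mitochondrial ratio was 0.818 with the 5% cut, 0.776 with no cut, 0.762 from 1000 UMIs, 0.706 with doublets kept, 0.784 without mitochondrial and ribosomal-protein genes and 0.693 with separate clustering. T cell-like cells had a nuclear ratio of 1.38 at resolution 0.5 and mitochondrial ratios of 0.772 with the 5% cut, 0.722 with doublets kept and 0.729 at resolution 0.5. Cluster 0 had 1.46 and 0.548 without mitochondrial and ribosomal-protein genes in the CPM. The nuclear ratio of neutrophil-like cells was 1.42 with no cut and 1.39 with doublets kept.

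Separate clustering gave no value for T cell-like and conventional dendritic cell-like cells, the minimum of 1000 UMIs none for neutrophil-like cells and resolution 0.5 none for conventional dendritic cell-like cells. Cluster 0 was followed only where the clustering was unchanged. The Spp1-led cluster and CPM without mitochondrial genes were alternatives chosen after seeing the data. The 3' counts of the LOY library were shallower, which widens intervals for members under about 50 CPM in small classes.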
